A study of Mus musculus with 18 samples.

Results

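Podocyte genes were examined in the kidney of mice under chronic social defeat stress (CSDS). The rows of the gene table with the symbols Nphs1, Podxl, Wt1, Synpo, Ptpro, Cd2ap and Actn4 were taken, and all 7 symbols were found, each on 1 of 32675 rows. Right kidneys came from 18 male wild-type C57BL/6 mice labelled as 6 weeks old, with 6 in each of 3 groups. Ctrl mice (labelled Ctrl) were not defeated, and no injection is stated for them. PBS mice (labelled StressPbs) met an aggressive mouse for 10 min a day on 14 days and received phosphate-buffered saline. FLX mice (labelled StressFlx) were defeated in the same way and received the antidepressant fluoxetine at 10 mg per kg. No group received fluoxetine without defeat, so that PBS versus Ctrl asks about defeat, in which the effect of the injections cannot be told apart, and FLX versus PBS asks about the drug in stressed mice only.

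Podocytes are the epithelial cells that wrap the glomerular capillaries. Their interlocking foot processes are joined by the slit diaphragm, a protein sheet through which plasma is filtered, and loss of foot processes is a common feature of proteinuric kidney disease. The slit diaphragm is held to an actin skeleton, and a charged surface coat keeps neighbouring processes apart. Nphs1 encodes nephrin, the main adhesion protein of the slit diaphragm, and Cd2ap encodes an adaptor that ties nephrin to actin. Podxl encodes podocalyxin, the main sialoprotein of the surface coat, and Ptpro encodes GLEPP1, a receptor tyrosine phosphatase of the apical membrane. Synpo encodes synaptopodin, which binds actin in foot processes, and Actn4 encodes alpha-actinin-4, which crosslinks actin filaments. Wt1 encodes a zinc finger transcription factor that podocytes keep in the adult. In the kidney, nephrin, GLEPP1 and synaptopodin mark podocytes, whereas Podxl is also expressed by endothelium, Wt1 by mesothelium, and Cd2ap and Actn4 by many cell types.

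The promoters of Actn4 and Cd2ap are shown because these were the members called against Ctrl in the main tests below, in opposite directions. The Cd2ap call, in FLX versus Ctrl only, was lost in 14 of 17 fits without 1 mouse. The sequences are RefSeq's on GRCm38.p6, from 250 bases before to 50 bases after the start of the gene, on the minus strand in both cases, at chr7:28962283-28962582 for Actn4 and at chr17:42876375-42876674 for Cd2ap. Capitals mark each match to GCGNGGGNG on either strand, the type of site read by Wt1 and other zinc finger factors.
Actn4: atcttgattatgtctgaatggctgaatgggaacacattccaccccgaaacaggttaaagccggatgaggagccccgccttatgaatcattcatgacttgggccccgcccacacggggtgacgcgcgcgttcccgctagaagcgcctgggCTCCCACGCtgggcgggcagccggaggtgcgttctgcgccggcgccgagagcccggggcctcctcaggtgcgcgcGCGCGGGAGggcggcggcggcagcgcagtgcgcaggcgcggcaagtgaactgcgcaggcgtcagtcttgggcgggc
Cd2ap: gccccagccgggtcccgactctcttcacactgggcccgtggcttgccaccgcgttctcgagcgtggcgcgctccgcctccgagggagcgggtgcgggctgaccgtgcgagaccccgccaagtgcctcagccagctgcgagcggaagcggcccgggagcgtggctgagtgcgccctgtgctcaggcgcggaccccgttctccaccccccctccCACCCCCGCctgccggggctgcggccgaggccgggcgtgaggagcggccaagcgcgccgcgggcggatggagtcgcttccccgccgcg
The motif stood at 2 places before Actn4 and at 1 place before Cd2ap, and 12.3% of 32851 promoters of this length held it. The GC box GGGCGG, searched on both strands, stood at 4 places in the Actn4 sequence and at 1 in that of Cd2ap, against 35.7% of all promoters with at least 1. Of the matches before Actn4, 1 GC box overlapped a GCGNGGGNG match. The E-box CAGCTG stood at 1 place before Cd2ap (16.3% of promoters), and the TATA box TATAAA, held by 13.6% of promoters, in neither sequence. The homeodomain core TAATTA, held by 5.29% of promoters, was absent from both windows, as was the MAF-type site TGCTGA, held by 19.5%. Both sequences were rich in G and C (68.0% and 77.0%, median over all promoters 52.7%). Of the other members, Nphs1 and Ptpro were found in the promoter table, and none of these motifs was found in their sequences. A match is a description of letters, and binding was not measured here.

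The level of each gene is given as FPKM (fragments per kilobase of exon, scaled to the mapped fragments of the mouse), which allows genes to be compared per length. Across the 17 mice used in the tests, mean FPKM was highest for Actn4 (37.3) and Podxl (27.7). Nphs1 (4.50), Synpo (4.18), Cd2ap (2.60), Ptpro (1.75) and Wt1 (1.07) were lower, so that the members spanned 35.0-fold. Actn4 exceeded Podxl, and Podxl exceeded Nphs1, in 17 of 17 mice. Nphs1 and Synpo could not be ordered beyond their spread, since Nphs1 was higher in 11 of 17 mice only. Synpo exceeded Cd2ap in 16 mice, Cd2ap exceeded Ptpro in 17, and Ptpro exceeded Wt1 in 16. The FPKM values followed the length of all annotated exons of a gene together, which for Cd2ap is 15864 bases, against 5364 for its longest coding transcript. Rescaled to the longest coding transcript, mean levels were 7.72 for Synpo, 7.69 for Cd2ap and 6.47 for Nphs1, so the order of these 3 depended on the length used.

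Total counts were 72149987 to 79061296 in 14 mice and 48928823 to 52073640 in FLX replicates 3 to 6, whose values for the less abundant members rest on fewer counts. All 7 members passed the filter on low counts, and the lowest count of any was 347, for Wt1. The study deleted the data of 1 PBS mouse for its high expression of inflammatory genes and did not name it. PBS replicate 6 was taken to be this mouse, since its FPKM of S100a8 (22.1), S100a9 (32.8) and Lcn2 (49.2), which mark neutrophils and injured tubules, was the highest of all 18 mice. Results below rest on the other 5 PBS mice, and values with all 6 stand beside them. All of 10 podocyte markers were detected in every group, with summed FPKM of 52.4 to 66.8 in Ctrl, 62.5 to 74.0 in PBS and 60.2 to 92.3 in FLX mice. Since 6 of the 10 are members, this is no independent check of the podocyte label. Podxl alone had a mean of 23.6 FPKM in Ctrl mice. In whole kidney, more podocytes and more RNA per podocyte cannot be told apart.

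In PBS versus Ctrl, 1 of 7 members was called at an adjusted p under 0.05, namely Actn4, which rose, and 3.81% of the 20251 genes tested were called (2.14% as higher). At an unadjusted p under 0.05, 5 members (Nphs1, Podxl, Wt1, Synpo and Actn4) had higher counts in PBS mice, against 17.9% of all genes in either direction and 9.18% in this one. The log2 fold change was positive for 6 of 7 members, with a median of 0.28 (all genes -0.01) and a range from -0.11 for Cd2ap to 0.38 for Synpo. None reached the study's own threshold, an absolute log2 fold change over 1 with an unadjusted p under 0.05, which 3.28% of all genes reached. With all 6 PBS mice, 2 members were called as higher, Actn4 and Synpo, against 4.28% of genes (2.45% as higher).

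In FLX versus PBS, no member was called by edgeR, and 0.726% of genes were. DESeq2 called none either, and at an unadjusted p under 0.05 only Cd2ap had a lower count, against 11.1% of genes in either direction and 5.38% in this one. None reached the study's threshold, which 1.9% of genes did. Log2 fold changes lay between -0.26 for Cd2ap and 0.10 for Wt1, with a median of -0.03 (all genes -0.003). The 95% intervals show how large a difference remained possible: for Podxl -0.20 to 0.27, for Wt1 -0.23 to 0.43 and for Nphs1 -0.34 to 0.08. With all 6 PBS mice, 7 of 7 log2 fold changes were negative, and none was called (0.557% of genes).

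In FLX versus Ctrl, Actn4 rose and Cd2ap fell, that is 2 of 7 members against 3.67% of genes (2.08% as higher and 1.59% as lower). With all 6 PBS mice in the model 1 member was called, Actn4, against 1.77% of genes (1.01% as higher). At an unadjusted p under 0.05, 4 members had higher counts (Podxl, Wt1, Synpo and Actn4) and 1 had a lower count, against 20.4% of genes (10.2% in each direction). None reached the study's threshold, against 2.24% of genes. The median log2 fold change was 0.31 (all genes -0.01). This comparison shares the Ctrl mice with PBS versus Ctrl and the FLX mice with FLX versus PBS, so that the comparisons are not independent of each other. The plot of fold changes shows the 7 members in the 3 comparisons side by side.

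**Figure D1:**
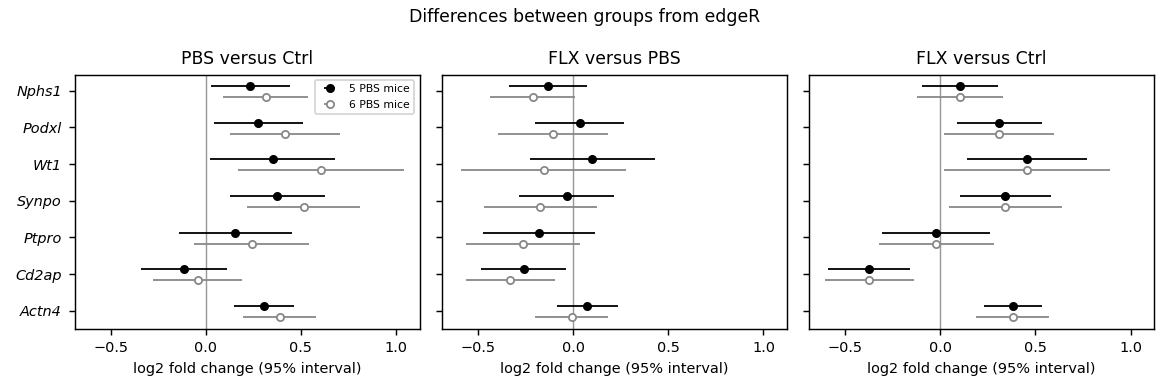
Log2 fold change of each podocyte gene from edgeR (x axis, with 95% intervals) in PBS versus Ctrl, FLX versus PBS and FLX versus Ctrl, with 5 PBS mice (filled) and with all 6 (open). Actn4 lies at 0.31, 0.07 and 0.38 with 5 PBS mice, and Cd2ap is the member furthest below 0 in each panel.

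Of the 7 members, Actn4 was the one whose PBS and FLX mice did not overlap with the Ctrl mice. Its FPKM was 28.8, 30.8 and 33.6 (lowest, median and highest) in the 6 Ctrl mice. The 5 PBS mice had 40.9, 36.3, 35.0, 40.5 and 37.8 FPKM, and the 6 FLX mice had 35.6 to 48.0 with a median of 43.8. Every PBS mouse and every FLX mouse was thus above every Ctrl mouse, a pattern found in 1.77% and 2.67% of genes tested, and PBS replicate 6 (53.6) was above them too (1.34% of genes with all 6 PBS mice). FPKM is not corrected for library composition, and on this scale the median gene was 0.06 higher (log2) in FLX than in Ctrl mice and 0.08 higher than in PBS mice. On TMM-scaled log2 CPM neither group overlapped with Ctrl, while PBS and FLX overlapped with each other, with 7.72 to 7.92 in Ctrl, 7.94 to 8.28 in PBS and 7.98 to 8.28 in FLX mice. Mean FPKM was 31.0 ± 2.04 (SD, n = 6) in Ctrl, 38.1 ± 2.58 (n = 5) in PBS and 43.0 ± 4.37 (n = 6) in FLX mice. Actn4 rose by 0.31 on the log2 scale (SE 0.0759, adjusted p = 0.0300, edgeR) in PBS versus Ctrl. The rise was 0.38 (SE 0.0727, adjusted p = 0.00998) in FLX versus Ctrl. Between FLX and PBS the log2 fold change was 0.07 (95% interval -0.09 to 0.23, adjusted p = 0.805). The exact permutation test of log2(FPKM + 0.1) gave p = 0.00216 against Ctrl for both groups, the smallest it can give, which after adjustment over all genes was 0.0917 for PBS and 0.0637 for FLX. The call for PBS mice was lost when any of 5 mice was left out (Ctrl replicates 1, 2 and 6, PBS replicates 1 and 4, adjusted p up to 0.101) and with upper-quartile scaling, no filter or only these 2 groups (0.0540, 0.0504 and 0.0651), while that in FLX versus Ctrl held without any single mouse (0.00390 to 0.0292) but not with FLX replicates 1 and 2 only (0.192).

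Synpo had 2.91, 3.35 and 4.38 FPKM (lowest, median and highest) in Ctrl mice. The PBS mice had 4.69, 4.61, 4.46, 4.51 and 4.03, and FLX mice had 3.4 to 6.06 with a median of 4.65. In PBS mice Synpo was above every Ctrl mouse in 4 of 5, the exception being PBS replicate 5, and in FLX mice in 4 of 6. Its log2 fold change reached 0.38 in PBS versus Ctrl (SE 0.119, adjusted p = 0.0892) and 0.34 in FLX versus Ctrl (adjusted p = 0.101), and neither passed. The exact permutation p was 0.00866 (adjusted over all genes 0.149) and 0.0195 (0.146). With all 6 PBS mice the first of these was called, at 0.51 (adjusted p = 0.0460). It was also called without Ctrl replicate 3, the highest Ctrl mouse, with an adjusted p of 0.0309, and so was FLX versus Ctrl (0.0232). DESeq2 called both (0.0398 and 0.0463). The FLX versus PBS value was -0.03 (adjusted p = 0.959).

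**Figure D2:**
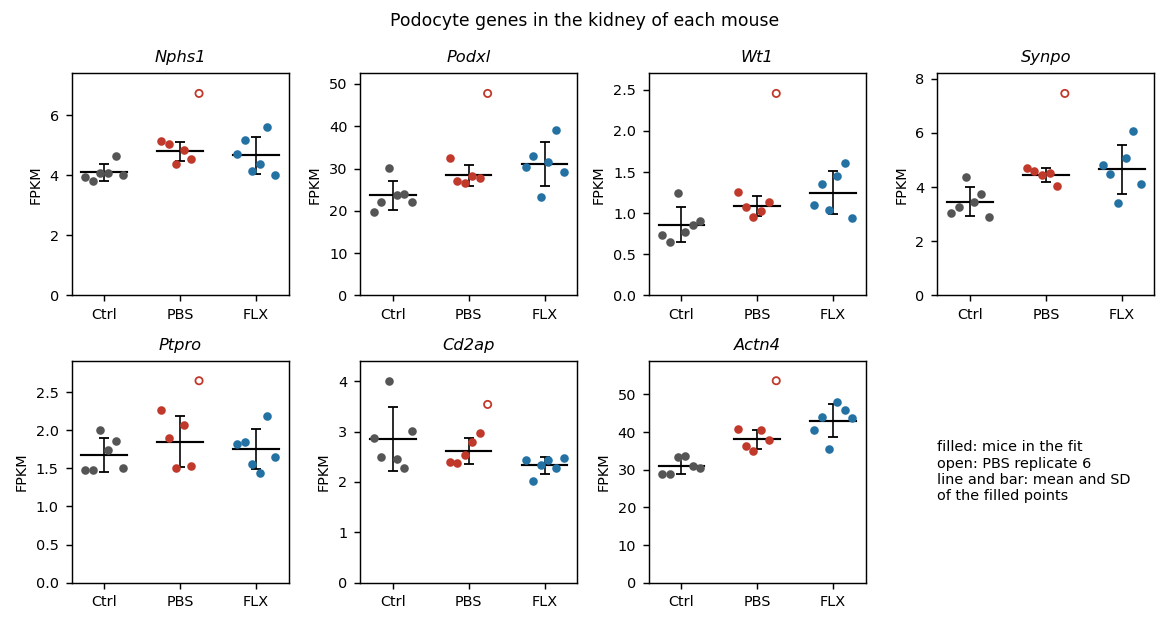
FPKM of the 7 podocyte genes (y axis, from 0) in each mouse of the Ctrl, PBS and FLX groups (x axis), with the mean and SD of the mice in the fit and PBS replicate 6 as an open circle. Actn4 is the gene whose PBS and FLX mice all lie above the Ctrl mice, of which the highest had 33.6 FPKM.

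Of the slit diaphragm members, Nphs1 had 3.80, 4.05 and 4.65 FPKM (lowest, median and highest) in Ctrl mice. The values were 5.15, 5.03, 4.38, 4.85 and 4.55 in the 5 PBS mice and 4.02 to 5.60 with a median of 4.54 in FLX mice. In 3 of 5 PBS and 3 of 6 FLX mice nephrin mRNA was above every Ctrl mouse, so the groups overlapped. Relative to Ctrl, PBS mice differed by 0.23 on the log2 scale (95% interval 0.03 to 0.44, adjusted p = 0.210), and the exact permutation p was 0.00866 (adjusted over all genes 0.149). It was 0.10 in FLX versus Ctrl (adjusted p = 0.574) and -0.13 in FLX versus PBS (adjusted p = 0.708). A ribosomal protein pseudogene on the opposite strand, Rps12-ps4, overlaps exons of Nphs1 over 183 bases, none of them in a coding transcript. The pseudogene's counts were 22.4% to 40.4% of those of Nphs1, and whether reads were counted by strand is not stated in these sources, so its part in the Nphs1 counts was not tested.

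Cd2ap had the lowest log2 fold change of the members in each of the 3 comparisons. Its FPKM was 2.27, 2.69 and 4.01 (lowest, median and highest) in Ctrl mice. The PBS mice had 2.40, 2.38, 2.54, 2.79 and 2.97, and the FLX mice had 2.01 to 2.48 with a median of 2.38. FLX values were closely spaced (CV 7.43%) and Ctrl values widely (22.0%), with Ctrl replicate 3 the highest, and the groups overlapped. Cd2ap fell by 0.37 on the log2 scale in FLX versus Ctrl (SE 0.102, adjusted p = 0.0497). The call was lost in 14 of 17 fits without 1 mouse (adjusted p up to 0.104, without FLX replicate 2) and with all 6 PBS mice in the model (0.0914), without a filter (0.0716), with only these 2 groups (0.0679) and with limma on log2(FPKM + 0.1) (0.194). The exact permutation p was 0.0476 (adjusted over all genes 0.223). The log2 fold change was -0.26 in FLX versus PBS (95% interval -0.48 to -0.03, adjusted p = 0.344) and -0.11 in PBS versus Ctrl (adjusted p = 0.643).

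Of the cell surface members, Podxl had 19.8, 23.0 and 30.1 FPKM (lowest, median and highest) in Ctrl mice. The PBS mice had 32.5, 27.0, 26.5, 28.3 and 27.7, and FLX mice had 23.3 to 39.1 with a median of 30.9. All 5 PBS mice exceeded 5 of the 6 Ctrl mice, but 1 PBS mouse only exceeded Ctrl replicate 3, the highest. The log2 fold change of podocalyxin mRNA was 0.28 in PBS versus Ctrl (95% interval 0.04 to 0.51, adjusted p = 0.192) and 0.31 in FLX versus Ctrl (0.09 to 0.53, adjusted p = 0.110). Without Ctrl replicate 3 the latter had an adjusted p of 0.0210 and was called, as it was with DESeq2 (0.0491) and limma on log2(FPKM + 0.1) (0.0444). FLX versus PBS gave 0.03 (adjusted p = 0.954).

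Ptpro overlapped in all groups. Ctrl mice had 1.48 to 2.01 FPKM with a median of 1.62, and FLX mice had 1.44 to 2.18 with a median of 1.73. The PBS mice had 2.27, 1.89, 1.5, 2.06 and 1.53. Log2 fold changes of this phosphatase gene were 0.16 (95% interval -0.14 to 0.45) in PBS versus Ctrl, -0.18 (-0.47 to 0.12) in FLX versus PBS and -0.02 (-0.30 to 0.26) in FLX versus Ctrl, and none was called (adjusted p = 0.623, 0.732 and 0.955).

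The transcription factor Wt1 was the least abundant member and the most variable (CV 24.3% over 17 mice). Its FPKM was 0.656, 0.810 and 1.25 (lowest, median and highest) in Ctrl mice and 0.946 to 1.61 with a median of 1.23 in FLX mice. The PBS mice had 1.26, 1.08, 0.949, 1.02 and 1.14. As for Podxl, the highest Ctrl mouse was replicate 3, and only 1 PBS mouse was above it. In PBS mice Wt1 stood 0.35 above Ctrl on the log2 scale (95% interval 0.02 to 0.68, adjusted p = 0.244), and the value was 0.45 in FLX versus Ctrl (0.14 to 0.77, adjusted p = 0.0989) and 0.10 in FLX versus PBS (adjusted p = 0.890). Without Ctrl replicate 3 the FLX versus Ctrl difference was called (adjusted p = 0.0125), and DESeq2 called it too (0.0385). Mesothelial genes, of a cell layer that also expresses Wt1, had summed FPKM over 5 genes of 0.637 to 14.7 in Ctrl, 2.55 to 24.9 in PBS and 1.3 to 61.5 in FLX mice, none at 0 in any group and none called, and their part in the Wt1 values was not tested.

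Single mice moved several members at the same time. On the log2 scale relative to the Ctrl mean, the median of the 7 members was -0.18 to 0.34 in Ctrl mice, 0.14 to 0.43 in the 5 PBS mice and -0.02 to 0.57 in FLX mice. Ctrl replicate 3 was the highest Ctrl mouse for 5 members, FLX replicate 5 the highest FLX mouse for 5, and FLX replicate 3 the lowest FLX mouse for 3. PBS replicate 6 stood at 0.79. This mouse was the highest of all 18 for 6 members (share of all genes not computed), and for Cd2ap (3.54 FPKM) it was below Ctrl replicate 3 (4.01) alone. Its FPKM relative to the mean of the other 5 PBS mice was 2.25-fold for Wt1, 1.68 for Podxl, 1.67 for Synpo, 1.43 for Ptpro, 1.41 for Actn4, 1.40 for Nphs1 and 1.35 for Cd2ap. In the same mouse the summed FPKM of 5 proximal tubule markers was 676, against 1033 to 1311 in the other 17 mice, that of 8 endothelial markers was 89.2 (30.8 to 64.8 elsewhere) and that of 4 mesangial markers was 26.7 (9.32 to 17.3 elsewhere). Their part in the member values was not tested.

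**Figure D3:**
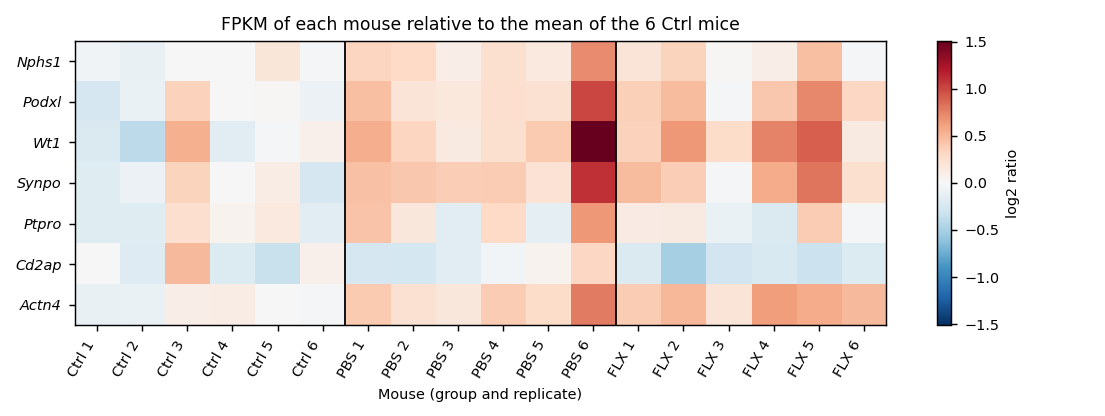
FPKM of each podocyte gene (rows) in each of the 18 mice (columns) as a log2 ratio to the mean of the 6 Ctrl mice, with red for higher and blue for lower. PBS replicate 6 is the reddest column, Ctrl replicate 3 is the highest Ctrl mouse for 5 genes, and Cd2ap is blue in every FLX mouse.

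Across the 17 mice most members varied together, with Cd2ap apart from the rest and Ptpro in part where group means were kept. Among the 21 pairs, 14 correlations of log2 CPM (counts scaled to the library size after TMM correction) had an adjusted p under 0.05 for Pearson's r and 12 for Spearman's rho (permutation tests, 100000 resamples). Of the 15 pairs without Cd2ap, all 15 had r above 0 and 13 passed for r, the exceptions being Ptpro with Wt1 (adjusted p = 0.163) and with Actn4 (0.226). The 10 pairs among Nphs1, Podxl, Wt1, Synpo and Ptpro had r between 0.39 and 0.92 (median 0.68). After each group's mean was taken off, r was between 0.50 and 0.87, and these centred values were not tested. Within the 6 Ctrl mice r of these pairs ran from 0.04 to 0.92, and within the 6 FLX mice from 0.39 to 0.92. The closest pair was Podxl and Synpo, with r = 0.92 and rho = 0.93 (permutation p = 1e-05 for each, the smallest these resamples can give, and adjusted p = 0.000105 and 0.00021). Without the 2 mice farthest from the median of Podxl, r was 0.87, and within groups it was 0.90 in Ctrl, 0.66 in PBS (5 mice) and 0.92 in FLX mice. Nphs1 was closest to Ptpro, with r = 0.78 and rho = 0.66 (permutation p = 0.00041 and 0.00466, adjusted p = 0.00143 and 0.0122), 0.70 without the 2 farthest mice, and 0.55, 0.97 and 0.88 within Ctrl, PBS (5 mice) and FLX mice.

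Actn4 correlated with Nphs1, Podxl, Wt1 and Synpo, with r between 0.55 and 0.84, whereas r was 0.35 with Ptpro, which did not pass. Less the group means, r of Actn4 was 0.63 with Ptpro and between 0.50 and 0.76 over these 5 genes. These centred values were not tested. Cd2ap stood apart, with r between -0.54 and 0.06 against the other 6 members. Its correlation with Actn4 was r = -0.54 and rho = -0.57 (permutation p = 0.0212 and 0.0188, adjusted p = 0.0349 and 0.0330). It was -0.44 without the 2 farthest mice, -0.28 within Ctrl and -0.61 within FLX mice, but 0.39 within PBS mice (5 mice). Once group means were taken off, r was -0.11, a value that was not tested. With PBS replicate 6 included, Cd2ap's correlations lay between -0.20 and 0.26.

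**Figure D4:**
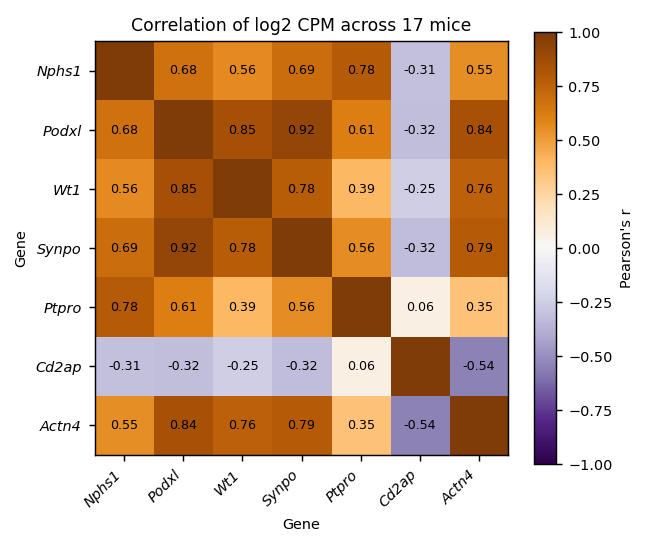
Pearson's r of log2 CPM for each pair of podocyte genes (rows and columns) over 17 mice, with brown for positive and purple for negative values. Podxl with Synpo is the highest pair at 0.92, and the Cd2ap row holds the negative values, the lowest being -0.54 with Actn4.

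Of all 20251 genes tested, those closest to each member across the 17 mice are given as a description, with no test. For Podxl they were Ripor1 (r = 0.92), Synpo (0.92) and 4930402H24Rik (0.92), and for Synpo they were Podxl (0.92), Stt3b (0.91) and Trpm6 (0.88). Podxl and Synpo were thus among each other's nearest genes. Members were not always near each other in this order: for Wt1, Podxl ranked 4 but Ptpro 3672, for Nphs1, Ptpro ranked 37 but Actn4 725, and for Actn4, Podxl ranked 49 but Ptpro 4197. For Wt1 the nearest were Shisa3 (0.90), Dennd5a (0.88) and C1ra (0.86), and for Actn4 they were Thbd, the endothelial thrombomodulin gene (0.93), Dhx15 (0.92) and Hspa4 (0.92). Nphs1 was nearest to Mdh2 (0.88), Gm11960 (0.87) and Gm2445 (0.85), and Cd2ap to Nfia (0.88), Msi2 (0.87) and Zbtb20 (0.87). For Ptpro the nearest were Lrrc3b (0.85), the proximal tubule phosphate transporter gene Slc34a1 (0.84) and Gm13966 (0.82). Some of these likenesses depended on the mouse left out: with PBS replicate 6 added, r between Ptpro and Slc34a1 was -0.08, that between Ptpro and Lrrc3b 0.10 and that between Cd2ap and Nfia 0.42, while Podxl with Synpo was 0.95.

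The partners of the members in the slit diaphragm gave 16 tested genes, of which 1 was called in PBS versus Ctrl, none in FLX versus PBS and 1 in FLX versus Ctrl (medians 0.10, 0.06 and 0.18). Of all genes tested, 3.81%, 0.726% and 3.67% were called in these 3 comparisons, with medians of -0.01, -0.003 and -0.01. The same shares and medians stand against every list and marker set below. The called gene was in both cases Kirrel, which encodes the nephrin-binding protein Neph1. Kirrel FPKM was 0.904, 0.998 and 1.34 (lowest, median and highest) in Ctrl mice, 1.38, 1.29, 1.48, 1.21 and 1.78 in PBS mice and 1.57 to 2.37 in FLX mice, so that every FLX mouse was above every Ctrl mouse. This pattern was found in 2.67% of genes tested. On TMM-scaled log2 CPM, Kirrel was 3.02 to 3.49 in Ctrl, 3.51 to 3.94 in PBS and 3.76 to 4.21 in FLX mice. Kirrel rose by 0.46 in PBS versus Ctrl (SE 0.111, adjusted p = 0.0258) and by 0.76 in FLX versus Ctrl (SE 0.107, adjusted p = 0.00140). The first call was lost without PBS replicate 5 (0.0674), and the second with all 6 PBS mice in the model (0.0556), PBS replicate 6 having 3.58 FPKM. Prkci, a polarity kinase gene, had log2 fold changes of 0.09, 0.11 and 0.19 in the 3 comparisons.

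Among 5 podocyte transcription factors other than Wt1, Tcf21 was called in FLX versus PBS alone. Tcf21 FPKM was 5.02, 6.46 and 8.35 (lowest, median and highest) in Ctrl mice, 1.59, 6.06, 4.30, 1.36 and 3.04 in PBS mice and 7.91 to 10.05 in FLX mice, with 3.32 in PBS replicate 6. It was higher by 1.32 on the log2 scale in FLX than in PBS mice (SE 0.284, adjusted p = 0.0367). In PBS versus Ctrl the value was -1.02 (adjusted p = 0.0505), which with all 6 PBS mice was called (adjusted p = 0.0325). Leaving out PBS replicate 4, the lowest, gave an adjusted p of 0.0924 in FLX versus PBS. Tcf21 is also expressed by stromal cells of the kidney. The median over the 5 factors was 0.07, 0.24 and 0.25.

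The foot process cytoskeleton list, with 17 genes tested, centred on a log2 value of 0.20 (median) in PBS versus Ctrl, with 17 of 17 values above 0, and on -0.03 and 0.12 in FLX versus PBS and FLX versus Ctrl. Ezr, which encodes the membrane-actin linker ezrin and is also strong in proximal tubule, rose by 0.46 in PBS versus Ctrl (SE 0.118, adjusted p = 0.0344, 0.113 without PBS replicate 1). Slc9a3r2, which encodes the scaffold NHERF2 that binds podocalyxin, rose by 0.57 in FLX versus Ctrl (SE 0.101, adjusted p = 0.00596). Its FPKM was 11.1 to 14.8 in Ctrl, 10.9 to 17.4 in PBS and 17.5 to 20.7 in FLX mice, so that FLX mice lay above all mice of the other groups in the fit, which on TMM-scaled log2 CPM held against Ctrl but not against PBS mice (5.60 to 5.98 in FLX, 5.10 to 5.52 in Ctrl and 5.18 to 5.78 in PBS). In 2.67% of genes tested every FLX mouse was above every Ctrl mouse in FPKM. No other gene of the list was called, and the most abundant, Arhgdia, had 0.11, -0.04 and 0.07.

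Of 12 other podocyte-enriched genes, 2 were called in PBS versus Ctrl (3.81% of all genes) and none in the other comparisons, with medians of 0.16, -0.19 and 0.15. Cdkn1c, a cell cycle inhibitor of quiescent podocytes, rose by 0.46 (SE 0.106, adjusted p = 0.0200), and its 5 PBS mice (9.12 to 10.6 FPKM) lay above all Ctrl mice (6.06 to 8.26), as in 1.77% of genes tested. Enpep, an aminopeptidase of podocytes and proximal tubule, rose by 0.45 (SE 0.0983, adjusted p = 0.0151). Both calls were lost without 1 PBS mouse (adjusted p = 0.0501 without replicate 1 and 0.0517 without replicate 4). Vegfa, the most abundant of the list, had 0.08, -0.01 and 0.07. Of 11 genes of the glomerular basement membrane and its receptors, none was called in any comparison (medians 0.09, -0.01 and 0.10). Their most abundant genes, Itgb1 and Cd151, had 0.16 and -0.06 in PBS versus Ctrl.

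Among 11 paralogs and partners of the members, Actn1, which encodes the alpha-actinin most like that of Actn4, was the gene called. Actn1 FPKM was 1.87 to 2.96 in Ctrl mice, 3.44, 3.13, 2.90, 3.44 and 3.97 in PBS mice and 2.97 to 5.30 in FLX mice, far below Actn4. Actn1 rose by 0.49 in PBS versus Ctrl (SE 0.127, adjusted p = 0.0346, 0.0882 without PBS replicate 4) and by 0.58 in FLX versus Ctrl (SE 0.122, adjusted p = 0.0156). With all 6 PBS mice in the model the second was not called. Ptprj and Cd34, the most abundant of this list, had 0.09 and -0.02 in PBS versus Ctrl, and the list's medians were 0.09, 0.08 and 0.19.

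**Figure D5:**
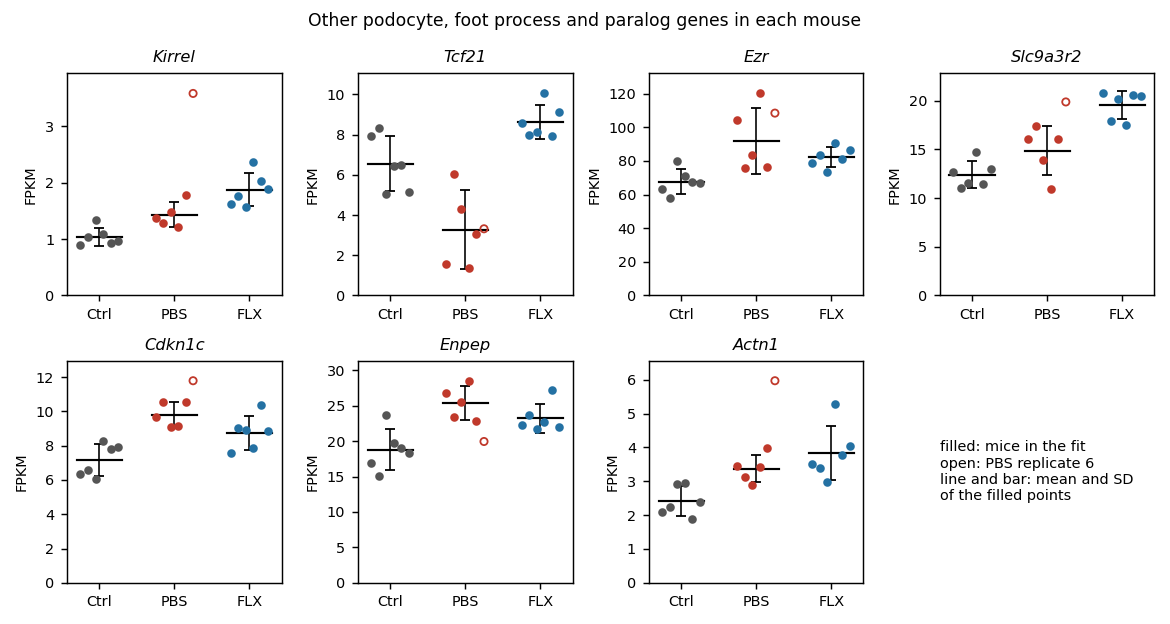
FPKM of 7 genes from the lists around the podocyte members (y axis, from 0) in each Ctrl, PBS and FLX mouse (x axis), with the mean and SD of the mice in the fit and PBS replicate 6 as an open circle. Kirrel and Actn1 are highest on average in FLX mice, and Tcf21 is lowest on average in PBS mice.

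Markers of other cells were measured beside these genes. In FLX versus Ctrl, 2 of 8 endothelial markers rose (2.08% of all genes were called as higher), Tek by 0.57 (adjusted p = 0.00596) and Flt1 by 0.66 (adjusted p = 0.0126), 8 of 8 log2 fold changes were above 0 (median 0.39), and summed FPKM was 34.8 to 47.9 in Ctrl and 41.8 to 64.8 in FLX mice. With all 6 PBS mice in the model Tek alone was called (1.01% of genes as higher). In PBS versus Ctrl no endothelial marker was called, and 7 of 8 values were above 0 (median 0.18). Of 4 mesangial markers, Serpine2 rose by 0.64 in PBS versus Ctrl (adjusted p = 0.010), but only 2 of 4 log2 fold changes were above 0 (median -0.01). Of 7 neutrophil genes tested, 3 rose in PBS versus Ctrl (S100a8, S100a9 and Ngp, against 2.14% of all genes called as higher), S100a8 fell in FLX versus PBS (0.726% of all genes called), and summed FPKM over the list was 1.35 to 3.44 in Ctrl, 7.07 to 26.1 in PBS and 0.379 to 5.5 in FLX mice. No marker of parietal epithelium, proximal tubule, distal nephron, mesothelium, fat or tubule injury was called in any comparison with 5 PBS mice. Their median log2 fold changes, in that order, were 0.18, 0.09, 0.22, 0.88, 2.62 and 1.17 in PBS versus Ctrl. In FLX versus Ctrl these medians were 0.15, -0.08, -0.01, 1.50, 2.22 and 0.66. Summed FPKM of the fat markers reached 56.1 in Ctrl, 515 in PBS and 318 in FLX mice, with lowest values of 0.443, 4.86 and 4.41. The part of these cells in the levels of the podocyte genes, of which Podxl and Actn4 are also expressed by endothelium, was not tested.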

How the data were processed

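Poly(A) RNA of right kidneys was sequenced in read pairs from strand-marked libraries. The deposited table holds, per gene and mouse, an FPKM value and an estimated count, both made by the authors. The submitters' processing notes name cutadapt 1.9, HISAT2 2.0.4, UMI-tools and StringTie 1.3.4d, whereas the study's methods name fastp, HISAT-3N and StringTie with GRCm38. The tool that gave the expected counts and its use of strand are not given in the sources used here. Values of low genes pile up at 4 counts (median 720 genes per mouse, against 484.5 at 3 and 268 at 5), so counts are estimates. They were tested as whole numbers with edgeR 4.0.16 (R 4.3.3; quasi-likelihood test, two-sided, TMM scaling, filterByExpr) in 1 model of 3 groups and 17 mice, with Benjamini-Hochberg adjustment over 20251 genes. PBS replicate 6 was left out, as described. Scripts were tested on simulated data.

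Exact two-sided permutation tests used log2(FPKM + 0.1), with adjustment over all genes tested. Correlations used log2 CPM (TMM, prior count 2). Promoters came from RefSeq, exons from GENCODE M21 (SciPy and pandas in Python). The labels do not say whether mice came from separate cages, and each mouse counted as 1 replicate. The members and the gene lists were chosen with earlier results of these data known. Named were all members, called genes of each list (at most 4 per comparison) and the 2 most abundant of each list, the 3 genes closest to each member, and S100a8, S100a9 and Lcn2. Of the cell type markers, called genes were named. Some genes that this rule names are not reported here. Alternatives were all 6 PBS mice, DESeq2 1.42.0, other scalings, no filter, limma 3.58.1 on log2(FPKM) with 3 pseudocounts, each mouse left out, a replicate block, only the 2 groups compared and FLX replicates 1 and 2 only. Ordering by the longest coding transcript was added after the data were seen.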

Additional observations from a re-analysis of the deposited data

Results flagged for a closer look

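In 21 groups of 6 mice (7 genes, 3 groups), 6 single values lay far from the other mice of their group, the gap to the next mouse exceeding 0.625 of the group's range. Chance gives about 1 in 20 for a single group. The 21 groups hold the same mice and the members varied together, so the 6 values cannot be set against this rate. Of the 6 values, 5 were from 1 mouse, PBS replicate 6: Nphs1 (6.72 FPKM), Podxl (47.8), Wt1 (2.46), Synpo (7.46) and Actn4 (53.6). The other was Nphs1 in Ctrl replicate 5, at 4.65 FPKM, the highest Ctrl mouse, without which PBS versus Ctrl had an adjusted p of 0.147 for Nphs1.

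PBS replicate 6 stands outside the main comparisons, and there 6 of 7 members were above every Ctrl mouse. They were the same 5 genes and Ptpro, at 2.65 FPKM. Cd2ap was not among them. The share of all genes in which this mouse was above every Ctrl mouse was not computed. Values with this mouse are given beside the results above, and the part of its cell composition was not tested.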

How the results depend on the processing

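Limits were few mice, effects under 1 log2 unit and a PBS mouse whose deletion rests on inflammatory genes. For the members, the number called in PBS versus Ctrl was 1, and it became 2 with all 6 PBS mice or DESeq2, and 0 with upper-quartile scaling, without a filter or with only the 2 groups compared. In FLX versus Ctrl it was 2, and it became 5 with DESeq2, 1 with all 6 PBS mice, without a filter or with only the 2 groups compared, and 0 with FLX replicates 1 and 2 only. No member was called in FLX versus PBS under any alternative. With single mice left out the number was 0 to 2, 0 to 0 and 1 to 5 in PBS versus Ctrl, FLX versus PBS and FLX versus Ctrl. The replicate numbers do not pair the mice: correlations of deviations between same-numbered mice ran from -0.20 to 0.23. With the replicate block, 0, 0 and 1 members and 419, 67 and 258 genes were called.

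Over all genes, calls were 772, 147 and 744, and with DESeq2 1413, 498 and 1615. Without a filter they were 88 in FLX versus PBS and 378 in FLX versus Ctrl, and with only the 2 groups compared 496 in PBS versus Ctrl and 95 in FLX versus PBS. With limma they were 255, 242 and 244 in FLX versus PBS and 1214, 1197 and 1165 in FLX versus Ctrl (pseudocounts 0.1, 1 and 0.01). All 6 PBS mice gave 354 in FLX versus Ctrl, and FLX replicates 1 and 2 only gave 0 and 4 in the FLX comparisons. Leaving out single mice gave 388 to 1662, 47 to 250 and 271 to 3099 genes.

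Directions turned only for values near 0 that were never called. In FLX versus PBS these were Podxl (-0.11 with all 6 PBS mice, -0.032 to 0.10 without 1 mouse), Wt1 (-0.15 with all 6), Actn4 (-0.0067 with all 6) and Synpo (0.042, 0.038 and 0.042 with limma, 0.011 with FLX replicates 1 and 2 only, -0.11 to 0.037 without 1 mouse). In FLX versus Ctrl it was Ptpro (0.054, 0.036 and 0.056 with limma, 0.094 with FLX replicates 1 and 2 only, -0.080 to 0.048 without 1 mouse). The exact permutation tests of the 3 comparisons and the correlations kept their counts within 1.5 times.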
